A study of Schizosaccharomyces pombe with 40 samples.

Results

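The 26 genes described here are fission yeast genes that carry a systematic identifier and no gene name, and whose RNA was lower after 120 min than after 0 min in hydroxyurea in 3 rep2 mutant strains. They were picked from 754 unnamed genes among 5042 features on the array. A gene was taken when the mean of its arrays at 120 min minus the mean at 0 min was at most −0.3 on the log2 scale in each of Cdelta21, Cdelta53 and 2C/S-H/Y, with the 2 probes of a gene averaged. These 0 and 120 min values chose the genes, so they are given as a description with no test. A further strain, Cdelta94, played no part in the choice, nor did the 10, 30 and 60 min arrays of the 3 choosing strains, and tests are given on these. The 26 are 3.45% of the unnamed genes, and the same threshold was met by 242 of 4057 genes that do have a name (5.96%).

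A systematic identifier of fission yeast records the cloned fragment of the genome on which an open reading frame was found, and a gene keeps it as its sole name until it is characterised. Hydroxyurea inhibits ribonucleotide reductase, the enzyme that makes deoxyribonucleotides, and so stalls DNA replication. Rep2 activates MBF, a transcription complex whose targets are switched on at the onset of S phase. The annotation used here gives no function for any of the 26, so they are described by their behaviour and by their neighbours on the chromosome.

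Total RNA was measured in Schizosaccharomyces pombe strains Cdelta94, Cdelta21 and Cdelta53 (written with a space in the labels), which carry truncations of rep2, and 2C/S-H/Y, with a site mutation of rep2. All strains grew in rich YES medium at 30 degrees to mid log phase and were sampled at 0, 10, 30, 60 and 120 min of 8 mM hydroxyurea, with 2 arrays per strain and time and 40 in all. Each array set a strain (Cy5) against one pool of untreated mid-log wild-type RNA (Cy3), and every level below is that log2 ratio. A wild-type culture in hydroxyurea is not analysed here, so a time course is that of a rep2 mutant, and the labels do not say whether a strain is 1 clone. Strain names are taken from the sample titles and the growth protocol, while the description field of the samples names another mutant (ployg).

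Some arrays stand apart. The signal of rep2, the mutated gene, averaged −5.19 and −5.09 at its 2 probes in Cdelta94, −0.69 and −0.90 in Cdelta21, −1.36 and −4.68 in Cdelta53, and 0.63 and −0.10 in 2C/S-H/Y (10 arrays each), and the place of each probe in the gene is not known. The 2 arrays of each Cdelta53 group were nearly copies of each other, with correlations of 0.977 to 0.99 over all features against 0.68 to 0.934 in the 15 other groups, and the 30 and 60 min replicate 1 arrays of 2C/S-H/Y correlated at 0.99. Results are therefore also given with near copies counted once. For this, each Cdelta53 pair was averaged into 1 array, and the 2 alike arrays of 2C/S-H/Y were both left out. Each Cdelta53 group, and 2C/S-H/Y at 30 and at 60 min, then holds 1 array. The part of the smaller number of arrays in calls lost this way was not tested. Counts with near copies counted once or with single arrays left out are given without the share of all features. Such counts show how a result moved and do not set the 26 genes apart from the array. Over the 4978 features that are not among the 26, the change on the arrays labelled Cdelta94 30 min correlated at 0.67 with the mean 120 min change of the other strains and at 0.36 with their 30 min change. The change on the arrays labelled Cdelta94 120 min correlated with these at 0.33 and 0.33. In 2C/S-H/Y the mean levels at 0 min and at 10 min correlated least (r = 0.59, against 0.83 to 0.95 in the other strains). Whether the paired arrays stem from different cultures is not in the labels, and p-values therefore reflect array-to-array spread that may be technical. The fit with all arrays pools the spread of a gene over all groups, the near copies included. Its standard errors and p-values may therefore be too small in every strain, Cdelta94 among them.

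The RefSeq gene table held 25 of the 26, all as protein-coding genes without a symbol, 12 on chromosome I, 6 on II and 7 on III. All 26 had a value on every array, and 20 of their 1040 values rested on 1 of the 2 probes. Both probes met the threshold by themselves in 13 of the 26. Neither probe did so in SPAC5H10.07 and SPAC9.06C. In the strain where each probe changed least, they stood at −0.21 and −0.09 (SPAC5H10.07) and −0.22 and −0.25 (SPAC9.06C). SPBPB10D8.04C could not be judged by probe, as 1 of its probes lacks a 2C/S-H/Y value that the rule needs. The probes of SPAC2H10.01 ran together over the 40 arrays (r = 0.99), whereas those of SPAC9.06C did not (r = −0.34). For SPBC887.08, 1 probe stood at 0.131 at 120 min minus 0 min in the strain where it changed least.

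Among the 25 genes that could be located, no 2 were found next to each other on a chromosome. Of 46 measured neighbours, 5 met the same threshold (10.9%, against 5.56% of all genes on the array). The neighbour of SPAC3F10.16C was ltv1, whose budding yeast counterpart helps assemble the small ribosomal subunit. At 120 min minus 0 min it was at −0.50 (Cdelta21), −0.76 (Cdelta53) and −0.43 (2C/S-H/Y). SPCC553.12C lies beside toa2, named after a subunit of general transcription factor TFIIA, and SPCC613.08 beside sen54, named after a subunit of the tRNA splicing endonuclease. The other pairs were SPAC24H6.13 with ste7 and SPAC977.12 with fex1. Of the 25 located genes, 23 overlapped another RefSeq gene and 10 overlapped a coding one. The strand read by the probes is not known, so signal from an overlapping gene cannot be told apart.

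At 120 min minus 0 min, averaged over the 3 choosing strains, the 26 genes ranged from −1.64 to −0.38 with a median of −0.59, against −0.02 over all features. SPCC306.11 was the lowest at −1.64, then SPAC23A1.01c at −1.36. SPBC31F10.17C (−0.85), SPAC24H6.13 (−0.83), SPCC24B10.18 (−0.83), SPAC25B8.12C (−0.82), SPBPB10D8.04C (−0.80) and SPCC320.08 (−0.75) followed. The other 18 lay between −0.66 (SPAC8F11.04) and −0.38 (SPAC9.06C). Just inside the threshold, in the strain where each changed least, were SPAC25B8.12C and SPBC16H5.08C at −0.30 and SPAC9.06C at −0.32. Just outside it were SPBC36.01C, SPCC126.01C and SPAPB2B4.07, each at −0.30 after rounding.

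**Figure D1:**
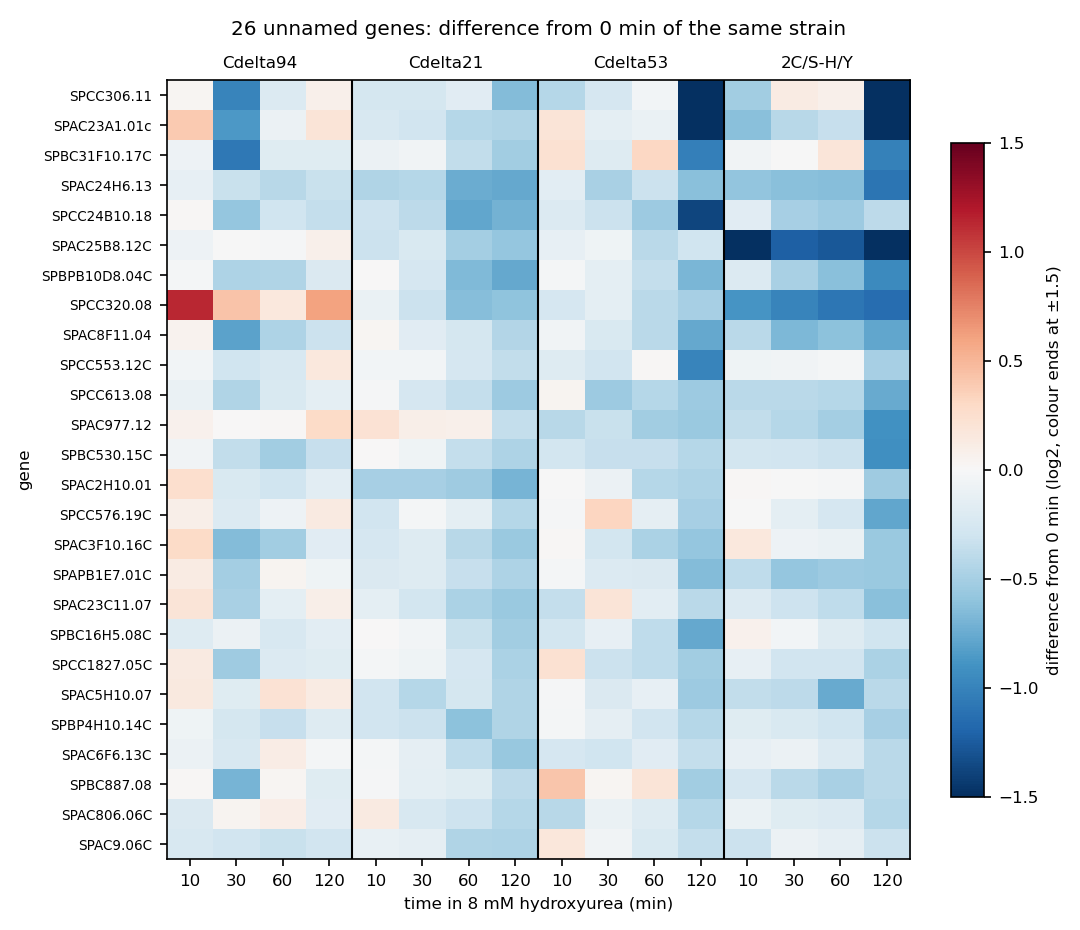
Difference in log2 ratio from 0 min of the same strain for the 26 genes (rows, lowest mean 120 min difference of the 3 choosing strains at the top) at 10, 30, 60 and 120 min (columns) in Cdelta94, Cdelta21, Cdelta53 and 2C/S-H/Y. Blue is lower than 0 min. The darkest 120 min cells of Cdelta53 and 2C/S-H/Y are at the top, and in Cdelta94 the column labelled 30 min is the bluest.

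The pace at which the 120 min level was approached is given strain by strain, without a test. In Cdelta21 the median of the 26 genes against 0 min was −0.10 at 10 min, −0.21 at 30 min, −0.36 at 60 min and −0.50 at 120 min. In Cdelta53 these medians were −0.04, −0.20, −0.31 and −0.54 in the same order of times, and in 2C/S-H/Y they were −0.23, −0.30, −0.34 and −0.59. The median gene in Cdelta21 had covered 73.8% of its 120 min difference by 60 min, against 50.9% for Cdelta53 and 57.3% for 2C/S-H/Y. The lowest of the sampled times was 120 min for 23 genes of Cdelta21, 24 of Cdelta53 and 20 of 2C/S-H/Y. In Cdelta94 no gene was lowest on the arrays labelled 120 min, 17 were lowest on those labelled 30 min and 7 at 60 min. The rule favours a low 120 min value in the choosing strains and not in Cdelta94, so these counts are not like for like.

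**Figure D2:**
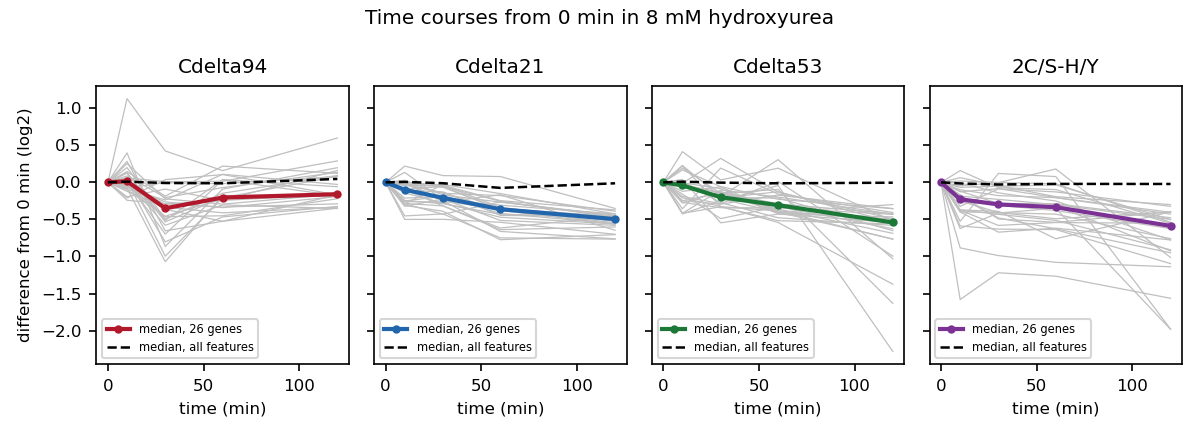
Difference in log2 ratio from 0 min against time in hydroxyurea in Cdelta94, Cdelta21, Cdelta53 and 2C/S-H/Y. Grey lines are the 26 genes, the coloured line is their median and the dashed line the median of all features. The coloured line descends to 120 min in the 3 choosing strains, where 120 min chose the genes, and in Cdelta94 it is lowest at the time labelled 30 min.

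In 3 genes the 120 min mean lay at least 0.5 below the 60 min mean in both Cdelta53 and 2C/S-H/Y, a set formed after its values were seen and therefore not tested. Just short of it in 1 strain were SPCC553.12C, at −1.01 (Cdelta53) and −0.47 (2C/S-H/Y), and SPCC576.19C, at −0.36 (Cdelta53) and −0.53 (2C/S-H/Y). The rule used the 120 min arrays of both strains, and the share of all features with such a step is not given here. SPCC306.11 in Cdelta53 read −0.54 and −0.58 on its 2 arrays at 0 min, −0.99 and −0.99 at 10 min, −0.82 and −0.79 at 30 min, −0.64 and −0.56 at 60 min, and −2.83 and −2.85 at 120 min. In 2C/S-H/Y it read 0.61 and 0.65, 0.11 and 0.10, 0.83 and 0.68, 0.77 and 0.65, and −1.40 and −1.29 at the same times. In both strains the 60 min arrays were within 0.2 of the 0 min arrays and both 120 min arrays lay far below. In Cdelta21 the same gene was at 0.24 and 0.20 at 0 min, 0.07 and 0.03 at 60 min and −0.43 and −0.43 at 120 min, a much smaller step.

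SPAC23A1.01c and SPBC31F10.17C shared the late step but not the whole course. The mean of SPAC23A1.01c in 2C/S-H/Y was 1.02 at 0 min and 0.67 at 60 min. That of SPBC31F10.17C in Cdelta53 was 0.49 at 0 min and 0.80 at 60 min. At 120 min minus 60 min, SPAC23A1.01c stood at −1.54 (Cdelta53), −1.63 (2C/S-H/Y) and −0.02 (Cdelta21). SPBC31F10.17C stood at −1.34, −1.19 and −0.16 in the same order of strains. On the arrays labelled Cdelta94 30 min these were the 3 lowest of the 26 against 0 min. There SPCC306.11 read −1.37 and −1.69, against −0.45 and −0.61 at 0 min, while the 60 min arrays read −0.78 and −0.70. SPAC23A1.01c read −1.72 and −1.64 on the arrays labelled 30 min, against −0.71 and −0.92 at 0 min. SPBC31F10.17C read 0.18 and −0.33 there, against 1.08 and 0.91 at 0 min, and so lay near the wild-type reference, against clearly above it at 0 min. For all 3 genes the pair of arrays labelled 30 min lay below both 0 min arrays. This adds little to their being the 3 lowest there, and the share of all features is not given.

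In 2C/S-H/Y, 5 genes were at least 0.5 lower in the mean at 10 min than at 0 min, SPAC25B8.12C, SPCC320.08, SPAC23A1.01c, SPAC24H6.13 and SPCC306.11. Of these, SPAC23A1.01c and SPCC306.11 are also among the late-step genes above, and the 30 and 60 min arrays of SPCC306.11 were not below its 0 min arrays. SPAC25B8.12C read 1.16 and 1.12 at 0 min, −0.36 and −0.52 at 10 min, 0.12 and −0.28 at 30 min, 0.12 and −0.37 at 60 min, and −0.31 and −0.54 at 120 min. Nearly the whole of its difference therefore lay between the first 2 time points. SPCC320.08 read 0.67 and 0.64 at 0 min, −0.11 and −0.35 at 10 min, and −0.25 and −0.72 at 120 min. The 0 min arrays of this strain stand apart as given above, and the rule used them. The part of either in the early differences was not tested. The share of all features with such an early drop is not given here. In Cdelta53, SPAC25B8.12C moved little, with 0.28 and 0.28 at 0 min and −0.02 and −0.02 at 120 min.

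SPBPB10D8.04C and SPAC8F11.04 declined over several steps in some strains, while the courses of SPCC24B10.18 and SPAC24H6.13 differed between strains. SPBPB10D8.04C in Cdelta21 read 0.32 and 0.37 at 0 min, 0.39 and 0.32 at 10 min, 0.14 and 0.04 at 30 min, −0.22 and −0.41 at 60 min, and −0.37 and −0.47 at 120 min. In Cdelta53, at the same times, it read 0.17 and 0.17, 0.13 and 0.15, 0.02 and 0.03, −0.18 and −0.20, and −0.54 and −0.49. In both strains the arrays at 30 min and later lay below those at 0 and 10 min. SPAC8F11.04 in Cdelta53 stood at 0.35 and 0.36, 0.30 and 0.31, 0.13 and 0.13, −0.04 and −0.06, and −0.39 and −0.43 through the same times. In 2C/S-H/Y its mean was −0.14 at 0 min, −0.82 at 30 min, −0.76 at 60 min and −0.92 at 120 min. SPCC24B10.18 had its largest step late in Cdelta53, with −0.47 and −0.53 at 60 min and −1.33 and −1.34 at 120 min, whereas in Cdelta21 it was at −0.68 and −0.67 at 60 min and −0.57 and −0.64 at 120 min. SPAC24H6.13 began above the wild-type reference in Cdelta21 (0.77 and 0.69) and 2C/S-H/Y (1.11 and 1.01) and ended near it at 120 min (−0.04 and −0.03 in Cdelta21, 0.04 and −0.12 in 2C/S-H/Y).

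The arrays at 10, 30 and 60 min of the choosing strains were free of the rule. In the mean of Cdelta21, Cdelta53 and 2C/S-H/Y, 8 of the 26 genes (30.8%) were lower at 60 min than at 10 min and 1 was higher at an adjusted p under 0.05 (limma with Benjamini-Hochberg adjustment over 5004 features). Of all features, 11.5% were lower and 6.49% higher. Of the named genes that met the same threshold, 113 of 242 (46.7%) were lower, and of the other unnamed genes 51 of 717 (7.11%). The median of the 26 was −0.16, and 23 of them (88.5%) had a negative difference, against 61.4% of all features. With each near copy counted once, 3 genes were lower: SPBPB10D8.04C, SPCC24B10.18 and SPCC1827.05C.

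SPBPB10D8.04C averaged −0.34 at 60 min and 0.13 at 10 min over the 3 strains, a difference of −0.47 (SE 0.088, adjusted p = 2.99e-04). SPCC24B10.18 differed by −0.39 (SE 0.067, adjusted p = 1.42e-04) and SPCC1827.05C by −0.34 (SE 0.068, adjusted p = 7.89e-04). For these 3 the adjusted p was 0.0058, 0.0244 and 0.03 with each near copy counted once. In 2C/S-H/Y, 9 of the 10 arrays of SPBPB10D8.04C rest on 1 probe and 10 min replicate 2 on both, and with probe 2 alone the difference was −0.39 (adjusted p = 0.00583). SPAC3F10.16C differed by −0.31 (adjusted p = 0.0112) and SPAC8F11.04 by −0.29 (adjusted p = 0.0032), and both calls were lost with near copies counted once (adjusted p = 0.0795 and 0.0943). The remaining 3 were SPCC613.08, SPBC16H5.08C and SPAC2H10.01, at −0.28, −0.23 and −0.17. The gene that rose was SPCC306.11, at 0.05 at 60 min and −0.31 at 10 min (difference 0.36, SE 0.064, adjusted p = 2.04e-04), before its late step down. The rise was called with near copies counted once too (adjusted p = 0.03), but by probe it passed with probe 1 (0.38, adjusted p = 0.00323) and not with probe 2 (0.36, adjusted p = 0.0783).

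Within single strains fewer genes passed the test. Between 10 and 60 min, 2 genes fell and 0 rose in Cdelta21 (4.18% of all features lower, 2.08% higher), SPBPB10D8.04C and SPCC24B10.18. In Cdelta53, 5 fell (6.65% of all features) and SPCC306.11 rose (5.46%), and none fell with near copies counted once. The largest of these was SPCC1827.05C, at −0.01 and 0.02 at 60 min, against 0.60 and 0.62 at 10 min. With 1 of the 4 arrays of a strain left out, each in turn, 0 to 1 genes fell in Cdelta21 and 1 to 2 in Cdelta53. In 2C/S-H/Y, limma called 0 lower (0.679% of all features), and SPCC306.11 rose (2.38%). In that strain 3 genes were lower and 3 higher at an unadjusted p under 0.05, against 300 and 361 of the 5004 features. In the mean of the 3 strains, SPCC613.08 and SPCC1827.05C fell between 10 and 30 min (3.12% of all features lower) and SPCC306.11 rose (3.02%). Neither fall passed with near copies counted once. From 30 to 60 min 0 genes were called (1.1% lower, 1.28% higher over all features), though some were without 2C/S-H/Y 60 min replicate 1. At an unadjusted p under 0.05, 7 were lower and 0 higher from 30 to 60 min, against 450 and 243 of the 5004 features.

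In Cdelta94, the strain left out of the choice, the genes were lower on the whole but few passed the test. At 60 min minus 0 min the median was −0.20, against −0.01 over all features, and 19 of 26 differences (73.1%) were negative, against 52.1% of all features. Of the 26, 2 fell and 0 rose at an adjusted p under 0.05 in limma (2.64% of all features lower, 2.7% higher). At an unadjusted p under 0.05, 10 were lower and 0 higher, against 617 and 476 of the 5004 features. Of the 242 named genes meeting the same threshold 40 fell (16.5%), and of the 717 other unnamed genes 4 fell (0.558%). SPAC8F11.04 read −0.20 and −0.56 at 60 min, against 0.14 and 0.04 at 0 min (difference −0.47, SE 0.117, adjusted p = 0.016). SPAC3F10.16C read −0.21 and −0.20 at 60 min, against 0.33 and 0.31 at 0 min (difference −0.52, SE 0.145, adjusted p = 0.0305). For both genes all 60 min arrays lay below all 0 min arrays, which adds little to the calls themselves. The share of all features with arrays so separated is not given. Both calls were lost with near copies counted once (adjusted p = 0.0902 and 0.102), and 0 genes were called without either Cdelta94 0 min array or without Cdelta94 60 min replicate 2. With 1 of the 4 arrays left out, each in turn, SPAC3F10.16C lost its call in all 4 cases and SPAC8F11.04 in 3.

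Some of the genes had positive differences in Cdelta94 at 60 min, none of which passed the test with all arrays. SPAC5H10.07 read 0.47 and 0.84 at 60 min, against 0.33 and 0.55 at 0 min, so that the arrays of both times overlapped. SPCC320.08 rests on a discordant pair, with −1.22 and −1.45 at 60 min, against −0.79 and −2.19 at 0 min. Without Cdelta94 0 min replicate 1 its difference was 0.855 and passed the test (adjusted p = 0.0236), and without 0 min replicate 2 it was −0.539. SPAC6F6.13C, SPAC806.06C and SPAPB1E7.01C were the other 3 highest, all with overlapping arrays. These values share the Cdelta94 0 min arrays with those that follow.

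On the arrays labelled Cdelta94 30 min, 12 of the 26 genes (46.2%) fell relative to 0 min and 0 rose (11.7% of all features lower, 12.5% higher), and the median was −0.35. The named genes of the same threshold gave 107 of 242 lower (44.2%), close to the unnamed ones. SPBC31F10.17C differed by −1.07 (SE 0.184, adjusted p = 1.07e-04), SPCC306.11 by −0.996 (SE 0.111, adjusted p = 1.9e-07), SPAC23A1.01c by −0.86 and SPAC8F11.04 by −0.80. The other 8 that fell were SPBC887.08 (−0.70), SPAC3F10.16C (−0.65), SPCC24B10.18 (−0.58), SPCC1827.05C (−0.53), SPAPB1E7.01C (−0.51), SPAC23C11.07 (−0.49), SPBPB10D8.04C (−0.46) and SPCC613.08 (−0.46). With near copies counted once 11 were lower. On the arrays labelled 120 min, 0 genes were called (0.12% of all features lower, 0.639% higher), and the median was −0.16. There 4 were lower and 2 higher at an unadjusted p under 0.05, against 163 and 386 of the 5004 features. At 10 min 0 were called (0.04% lower, 0.04% higher). Unadjusted p-values under 0.05 were found for 0 lower and 3 higher genes, against 229 and 265 of the 5004 features. The time at which Cdelta94 was lowest thus rests on the labels of the 30 and 120 min arrays, whose correlations with the other strains are given above.

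From 10 to 60 min in Cdelta94, 7 genes fell and 0 rose (8.81% of all features lower, 6.75% higher), with 5 lower when near copies were counted once and 2 without Cdelta94 10 min replicate 1 or 60 min replicate 2. SPAC3F10.16C read −0.21 and −0.20 at 60 min, against 0.68 and 0.53 at 10 min (difference −0.81, SE 0.145, adjusted p = 7.92e-04). SPCC320.08 read −1.22 and −1.45, against −0.28 and −0.44 at 10 min (difference −0.97, SE 0.248, adjusted p = 0.0099). SPAC2H10.01 differed by −0.55 (SE 0.098, adjusted p = 7.47e-04), SPAC8F11.04 by −0.52, SPAC23A1.01c by −0.49, SPBC530.15C by −0.47 and SPAC23C11.07 by −0.35.

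**Figure D3:**
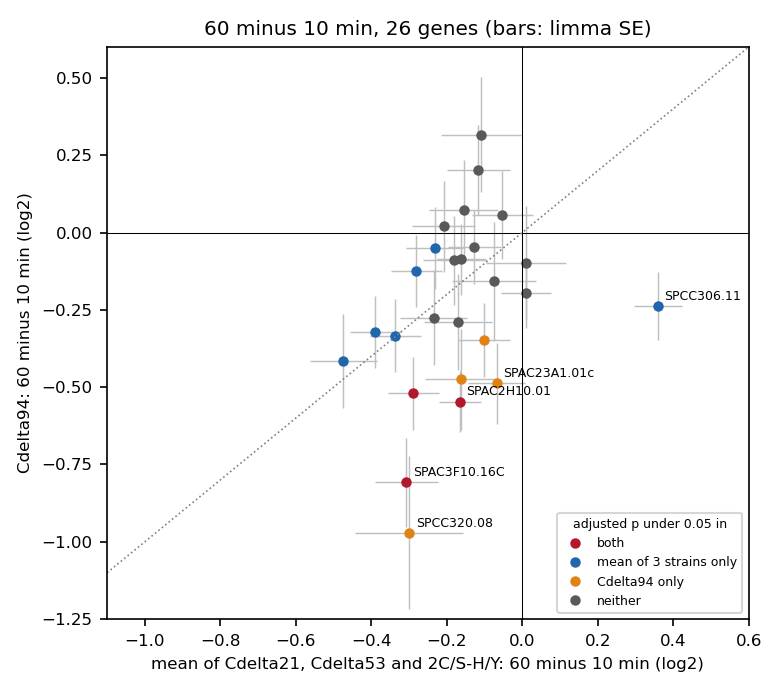
Log2 difference of 60 min minus 10 min in Cdelta94 (vertical axis) against the mean of Cdelta21, Cdelta53 and 2C/S-H/Y (horizontal axis) for the 26 genes, with limma standard errors as bars, colours for the groups in which a gene passed the test and a dotted line of equality. SPCC306.11 lies alone on the right at 0.36, and SPCC320.08 and SPAC3F10.16C lie lowest in Cdelta94.

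The 10 and 60 min arrays also allow a test between strains. In 60 min minus 10 min, Cdelta94 minus the mean of the other 3 strains had a median of −0.02 over the 26 genes. SPCC306.11 passed the test as lower and 0 genes as higher (0.659% of all features lower, 0.879% higher). It stood at −0.24 in Cdelta94 and at 0.36 in the mean of the other 3 strains (difference −0.60, SE 0.128, adjusted p = 0.0187). In Cdelta94 it read −0.78 and −0.70 at 60 min, against −0.43 and −0.57 at 10 min, whereas in 2C/S-H/Y it read 0.77 and 0.65 at 60 min, against 0.11 and 0.10 at 10 min. Its probes disagreed on this difference, at −0.03 for probe 1 (adjusted p = 0.952) and −1.18 for probe 2 (adjusted p = 0.0249). The adjusted p was 0.259 with near copies counted once, 0.128 with quantile normalization and 0.0779 with 2C/S-H/Y left out of the mean. Without Cdelta94 10 min replicate 1 or either Cdelta94 60 min array, no gene was called. SPAC2H10.01, SPAC3F10.16C, SPAC23A1.01c and SPCC320.08 had the next smallest p-values and did not pass. Any difference among the 4 strains, by limma's F test, passed for 2 genes (3.68% of all features). These were SPCC306.11 (adjusted p = 0.00881) and SPAC2H10.01 (adjusted p = 0.0379), and no gene passed with near copies counted once. At an unadjusted p under 0.05 with all arrays, 8 of the 26 and 1097 of the 5004 features passed this F test. With single arrays left out it passed for 1 to 5 genes, the 5 being without Cdelta94 10 min replicate 2.

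In SPAC2H10.01 the strains differed far more in level than in time course. Over its 10 arrays the gene lay between −3.50 and −2.80 in Cdelta94, between −3.56 and −2.80 in Cdelta21, between −1.23 and −0.73 in Cdelta53, and between −3.36 and −2.67 in 2C/S-H/Y. The Cdelta53 arrays did not overlap with those of any other strain, and its probes ran together as given above. Whether ratios this low lie at background cannot be told from the deposited values. In Cdelta53 it read −0.75 and −0.73 at 0 min, −0.74 and −0.75 at 10 min, −0.83 and −0.82 at 30 min, −1.21 and −1.12 at 60 min, and −1.23 and −1.19 at 120 min. In 2C/S-H/Y it was flat until 60 min (−2.79 and −2.86) and lower at 120 min (−3.36 and −3.34).

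**Figure D4:**
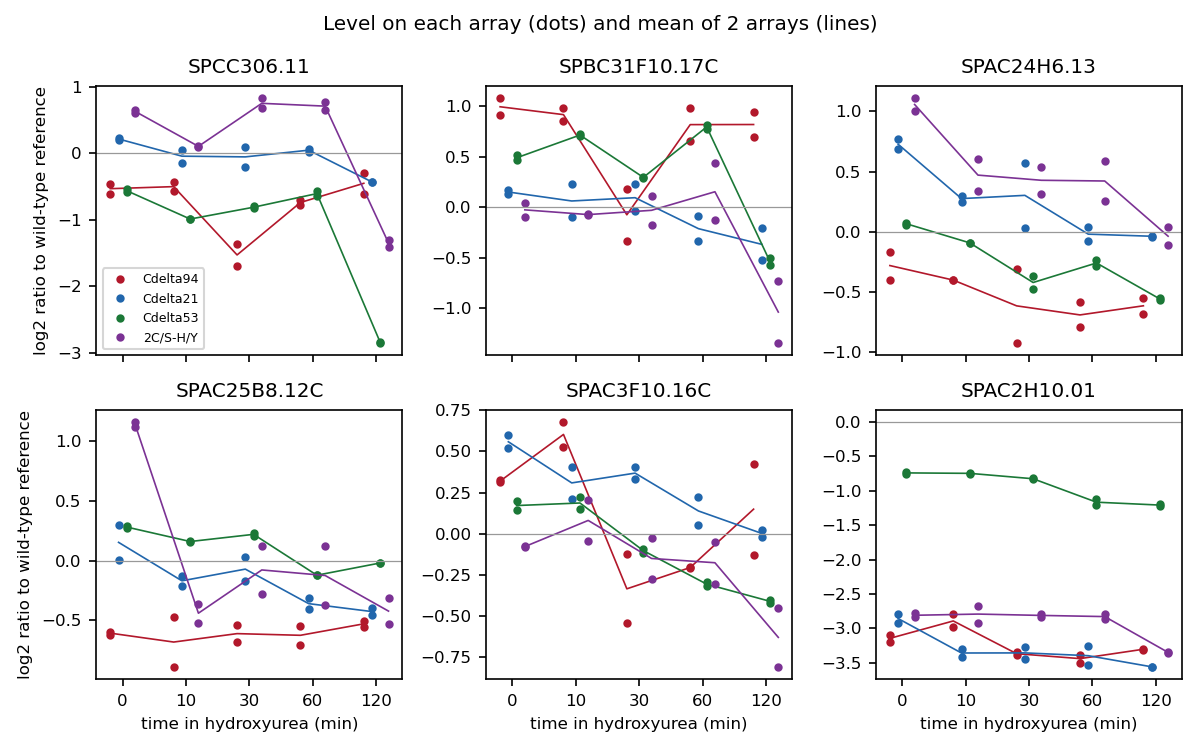
Log2 ratio to the wild-type reference on each of the 40 arrays for SPCC306.11, SPBC31F10.17C, SPAC24H6.13, SPAC25B8.12C, SPAC3F10.16C and SPAC2H10.01 (dots, coloured by strain) with the mean of the 2 arrays of a group as lines, against time in hydroxyurea, the times being evenly spaced. The late drop of SPCC306.11 in Cdelta53 and 2C/S-H/Y, the high 0 min arrays of SPAC25B8.12C in 2C/S-H/Y and the separate level of SPAC2H10.01 in Cdelta53 are visible.

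Between Cdelta94 and the other strains, the genes were called different in level more often than in time course, as was the array as a whole. For a given gene the level comparison has the smaller standard error, so these counts are not like for like. At 10 min 12 of the 26 were lower and 9 higher in Cdelta94 than in the mean of the other 3 strains (32.5% of all features lower, 25.3% higher), and at 60 min 13 were lower and 7 higher (37% and 31.6%). SPCC24B10.18 was higher, with 0.65 and 0.32 in Cdelta94 at 10 min, against a mean of −0.22 in the others (difference 0.70, SE 0.095, adjusted p = 8.62e-07). SPBC31F10.17C (0.68) and SPAPB1E7.01C (0.64) were also higher at 10 min. SPAC806.06C was lower, with −1.51 and −0.90 in Cdelta94, against a mean of −0.27 in the others (difference −0.93, SE 0.151, adjusted p = 1.01e-05). SPBP4H10.14C (−0.65) and SPAC24H6.13 (−0.62) were the next lowest. In Cdelta94 at 10 min SPBP4H10.14C read −0.45 on replicate 1 and −1.19 on replicate 2, the latter resting on 1 probe. Without that replicate 2 array SPBP4H10.14C was no longer called.

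Before treatment, Cdelta94 at 0 min had 13 of the 26 genes lower and 7 higher than the wild-type reference (35.8% of all features lower, 31.6% higher). Without Cdelta94 0 min replicate 2, 4 were higher. This test leaves out the spread of the reference and any effect of the dyes. SPAC2H10.01 read −3.10 and −3.19, SPCC320.08 −0.79 and −2.19, and SPAC806.06C had a mean of −0.99. Above the reference were SPBC31F10.17C at 1.08 and 0.91, SPCC24B10.18 at 0.49 and 0.44 and SPCC613.08 at 0.53 and 0.40. The genes thus started from levels on both sides of the reference in a strain that had not yet met the drug, as did the array as a whole.

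Gene lists put these counts beside groups of known function. Among 152 ribosome biogenesis factors measured, 93 fell and 0 rose between 10 and 60 min in the mean of the 3 choosing strains, 90 fell and 1 rose on the arrays labelled Cdelta94 30 min, and 26 fell and 0 rose in Cdelta94 at 60 min minus 0 min. The shares that fell were 61.2%, 59.2% and 17.1%, against 11.5%, 11.7% and 2.64% of all features, of which 6.49%, 12.5% and 2.7% rose. Of 123 cytosolic ribosomal protein genes 14, 8 and 17 fell and 1, 1 and 0 rose in these 3 comparisons, and the shares that fell (11.4%, 6.5% and 13.8%) were near or below that of all features in the first and second. Of 28 genes of the core environmental stress response, the programme that fission yeast switches on under many stresses, 17 rose and 1 fell in the first comparison, 18 rose in the second and 10 in the third. Of 41 mating and meiosis genes 0 fell in any of the 3 and 1, 2 and 3 rose. Of 49 membrane transporters 9, 7 and 7 fell (18.4%, 14.3% and 14.3%) and 9, 12 and 5 rose. Of 39 cell wall and cell surface genes, 6, 12 and 9 fell (15.4%, 30.8% and 23.1%) and 2, 5 and 1 rose. These lists were taken up with results of these arrays known, and whether any of the 26 genes belongs to such a group is not in the annotation used here.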

How the data were processed

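The values used were the authors' deposited log2 ratios, used as given. Base 2 was read from the values, since 2 raised to a negative value gave a multiple of 0.001 (tolerance 0.02 of a unit) in 100% of cases, against 3.81% for base 10 and 5.17% for base e. The direction was taken as Cy5 (strain) over Cy3 (reference) from the dyes per the labels. For scanner, background correction and normalization, the method is not given in the sources used here. Array medians ran from −0.12 to 0.06 and 1.17% of values were missing.

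The 2 probes of a gene were averaged, names came from the platform annotation (the prefix SPOM_ is left out), and RefSeq assembly ASM294v3 gave neighbours. Features with a value on 80% of the arrays and 1 array of every group were kept (5004 of 5042). The test was limma 3.58.1 (R 4.3.3) on the means of 20 groups (20 residual degrees of freedom), with p-values adjusted by the Benjamini-Hochberg method over 5004 features within each of 16 comparisons and a threshold of 0.05. "Fell", "rose" and "called" refer to that threshold. The code was tested on simulated data. The number of arrays limits the precision, and signal intensities were not used.

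The genes, lists and tests were chosen with earlier results of these data known. Named genes were the 8 lowest at 120 min, the lowest called and 5 highest positive in Cdelta94 at 60 min, the 5 lowest and 3 highest called at 60 min minus 10 min, the 5 smallest p for the strain difference, the 3 highest and 3 lowest levels at 10 and 0 min, and 3 on each side of the threshold. Others were named after their values were seen. Alternatives covered near copies, normalization, probes, filters, the replicate block and single arrays left out. No search of promoter motifs or grouping by annotated function was made.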

Additional observations from a re-analysis of the deposited data

Results flagged for a closer look

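The time course from 10 to 60 min differed between strains for SPCC306.11. It was −0.24 in Cdelta94 and 0.36 in the mean of Cdelta21, Cdelta53 and 2C/S-H/Y, a difference of −0.597 (limma, adjusted p = 0.0187), and by the F test over the 4 strains the adjusted p was 0.00881. Probe 1 of the gene gave a difference of −0.03 and probe 2 one of −1.18. SPAC2H10.01 also differed among the 4 strains in 60 min minus 10 min (F test, adjusted p = 0.0379), with differences of −0.55 (Cdelta94), −0.42 (Cdelta53), −0.04 (Cdelta21) and −0.04 (2C/S-H/Y). Its difference between Cdelta94 and the mean of the other 3 was −0.38 and did not pass (adjusted p = 0.0802), and with quantile normalization it was 0.157. Neither F test passed when near copies of arrays were counted once.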

How the results depend on the processing

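Of 1147 values recomputed under the alternatives, 995 kept their direction and side of the threshold or moved by less than the tolerance set for counts and medians, 145 moved or crossed the threshold, and 7 reversed. The causes were not tested. A cut of −0.2 in each strain gave 50 genes, a cut of −0.5 gave 6, and 14 unnamed genes met the rule on both probes, 13 of them among the 26. The counts below are of the 26 genes called lower, or called by the F test. The share of all features called under each alternative is not given here. A count below therefore shows how a result moved and does not set the 26 apart from the array.

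For Cdelta94 at 60 min minus 0 min (2 with all arrays), 0 were lower with quantile normalization, 0 with near copies counted once, 0 with probe 1, 1 with probe 2, and 4 without the Cdelta94 arrays labelled 30 and 120 min. For Cdelta94 at 60 min minus 10 min (7), 1 was lower with quantile normalization and 2 when its groups were fitted alone. For Cdelta21 (2), 1 was lower with median-centred arrays, 1 with near copies counted once, 1 fitted alone, 0 with probe 1 and 1 with probe 2. For Cdelta53 (5), 19 were lower fitted alone, where the spread is that of near copies, and 0 with near copies counted once. For the mean of the 3 strains, 30 min minus 10 min (2) gave 0 with near copies counted once, 1 with quantile normalization, 1 with probe 1 and 0 with probe 2. At 60 min minus 10 min (8) it gave 3 with near copies counted once and 5 with probe 1. At 60 min minus 30 min (0) it gave 1 without 2C/S-H/Y and 1 without the Cdelta94 arrays of doubtful label. The strain difference in 60 min minus 10 min (1) gave 0 with near copies counted once, with quantile normalization, with probe 1 and without 2C/S-H/Y, and 2 with median-centred arrays and without the Cdelta94 arrays of doubtful label. The F test (2) gave 0 with near copies counted once, with quantile normalization, with probe 1 and with probe 2, 1 fitted alone and 4 without the arrays of doubtful label. The level at 60 min (13 lower) gave 6 with quantile normalization.

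Replicate numbers are shared by all groups, and the deviations of same-numbered arrays correlated at −0.24 to 0.37 in Cdelta21, 0.03 to 0.18 in Cdelta53, −0.14 to 0.60 in Cdelta94 and 0.06 to 0.65 in 2C/S-H/Y. As not every pair was over 0.1 (8 of 10 in 2C/S-H/Y, 3 to 5 in the others), the numbers were not taken to pair the arrays. With the replicate block, 5 were lower in Cdelta94 at 60 min minus 0 min, 4 in Cdelta21 at 60 min minus 10 min, 1 in the mean of the 3 strains at 60 min minus 30 min and 4 in the strain difference (SPCC306.11, SPAC2H10.01, SPAC3F10.16C and SPAC23A1.01c), and 5 passed the F test.

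With single arrays left out, the counts ran from 0 to 2 in Cdelta94 at 60 min minus 0 min, 10 to 14 at the label 30 min, 0 to 1 at the label 120 min and 2 to 9 at 60 min minus 10 min. They ran from 0 to 1 in Cdelta21, 1 to 2 in Cdelta53 and 0 to 2 in 2C/S-H/Y at 60 min minus 10 min. In the mean of the 3 strains they ran from 1 to 2 at 30 min minus 10 min, 6 to 10 at 60 min minus 10 min and 0 to 4 at 60 min minus 30 min. The strain difference ran from 0 to 2, the F test from 1 to 5, and genes higher in Cdelta94 at 0 min than the reference from 4 to 5. A group left with 1 array is assumed to vary like the others.

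Reversed values were all uncalled, though SPCC320.08 passed at 0.855. Single arrays left out moved the Cdelta94 60 min minus 0 min difference between −0.539 and 0.855 for SPCC320.08, −0.012 and 0.231 for SPAC6F6.13C, −0.094 and 0.304 for SPAC806.06C, and −0.085 and 0.16 for SPAPB1E7.01C. The negative ones came without 0 min replicate 2 for SPCC320.08 and SPAC6F6.13C, and without 60 min replicate 2 for SPAC806.06C and SPAPB1E7.01C. SPAPB1E7.01C was −0.067 with quantile normalization and SPCC320.08 was −0.578 with probe 2. The strain difference of SPAC2H10.01 was 0.157 with quantile normalization.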
